A study of Mus musculus with 7 samples.

Results

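The 8 Fc receptor and Fc receptor-like genes Fcgr2b, Fcer2a, Fcmr, Fcrl1, Fcrl5, Fcrla, Fcgrt and Fcer1g were followed by their symbols through a table of 48795 mouse genes, and all 8 were found. Memory B cells (MBCs, n = 3 libraries) and plasma cells (PCs, n = 4) had been sorted from spleens of female wild type C57BL/6 mice aged 8 to 12 weeks, 10 days after intravenous injection of sheep red blood cells, an antigen that elicits germinal centers (GCs). MBCs were gated as B220+ CD138neg IgDneg CD38+ CD273+ and PCs as B220lo CD138+ IgD-, after enrichment with CD43 MicroBeads. The table holds transcripts per 1000000 (TPM), a level already divided by transcript length and by library total, so that genes can be compared within a library. It keeps no read totals, so the depth behind each value is unknown, and the labels do not say whether libraries came from separate mice; p-values then measure the spread between these libraries, which may be technical.

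Fc receptors bind the constant part of an antibody and thereby let a cell sense antibody or antibody-bound antigen. On B cells most of them tune the antigen receptor, either through inhibitory motifs that recruit phosphatases or through activating motifs that recruit kinases, whereas on myeloid cells several need the shared FcR gamma chain to reach the surface and signal. Mature B cells are known for the IgG receptor FcgammaRIIB, the IgE receptor CD23, the IgM receptor and several Fc receptor-like proteins, and many surface receptors of B cells decline as PCs form.

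Immunoglobulin transcripts took 49.4 to 55.9% of the TPM in the PC libraries and 1.65 to 3.16% in the MBC libraries, which presses down the TPM of every other gene in PCs. Levels are therefore given below as scaled TPM, for which the values of a library were divided by the median, over the 9305 genes above 0 in all 7 libraries, of their ratios to the geometric mean. Genes above 0 numbered 11527 to 18061 per library. The library labelled MBC replicate 3 correlated better with the PC libraries (Pearson's r of log levels 0.700 to 0.777) than with the other 2 MBC libraries (0.681 and 0.687), held Cd38 at 6.77 scaled TPM against 130.3 and 186 in the others, and held Pdcd1lg2, which encodes CD273, at 2.59 against 43.3 and 24.4. Both were sort markers, and both were within or below the PC range of Cd38 (9.89 to 21.3) and Pdcd1lg2 (0 to 2.84). Other markers differed. In MBC replicate 3 Ptprc, which encodes B220, was at 529, above the PC range (262 to 315). Ighd was at 9.55 there, against 85.8 and 39.9 in the other MBC libraries and 14.2 to 38.8 in PCs. The 5 B cell markers summed to 1293 there, against 2069 and 3308 in the others and 760 to 929 in PCs. Of these markers, Cd79a (374) was below the PC range (458 to 510). The same library was the highest MBC library for 7 of 7 GC B cell markers (summed level 664 scaled TPM against 244 and 270.1) and for 10 of 10 proliferation genes (1153 against 207 and 193). In the PC libraries the plasma cell markers summed to 8742 to 14574 scaled TPM against 130.2 to 186 in MBCs, and Sdc1, which encodes CD138, was at 49.6 to 78.1 against at most 0.0585. Results that rest on MBC replicate 3 are given with and without it. As in any bulk measurement, fewer cells of a type and less RNA per cell cannot be told apart.

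Of the 8 genes, 2 were lower and 1 was higher in PCs than in MBCs when each gene was tested with limma on log2(scaled TPM + 1) and called at an adjusted p under 0.05 (Benjamini-Hochberg over all tested genes) and a log2 fold change of 1 or more in either direction. Fcer2a and Fcrl1 were lower, Fcer1g was higher, and Fcmr, Fcrl5, Fcgr2b and Fcrla passed neither way. Fcgrt did not reach 1 TPM in at least 3 libraries and was not tested, so 7 of the 8 genes passed the filter on low values. Of the 11573 genes tested, 990 (8.55%) were called, 742 (6.41%) higher and 248 (2.14%) lower in PCs. Without rescaling, the calls turned to 472 higher and 3018 lower. The levels of MBCs and PCs did not overlap for 4 of the 7 tested genes, against 21.7% of all genes tested. The titles carry a prefix, with no stated meaning, that sets MBC replicate 3 and PC replicate 4 apart. Within the more frequent prefix, Fcer2a (-4.71) and Fcrl1 (-2.18) stayed called lower, Fcmr (-1.79) and Fcrl5 (-4.20) joined them, and Fcer1g (3.40, limma adjusted p = 0.131) was not called, while the other prefix had 1 library of each population and allowed no test. The median log2 fold change was -1.23 over the 7 genes and 0.14 over all tested genes.

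**Figure D1:**
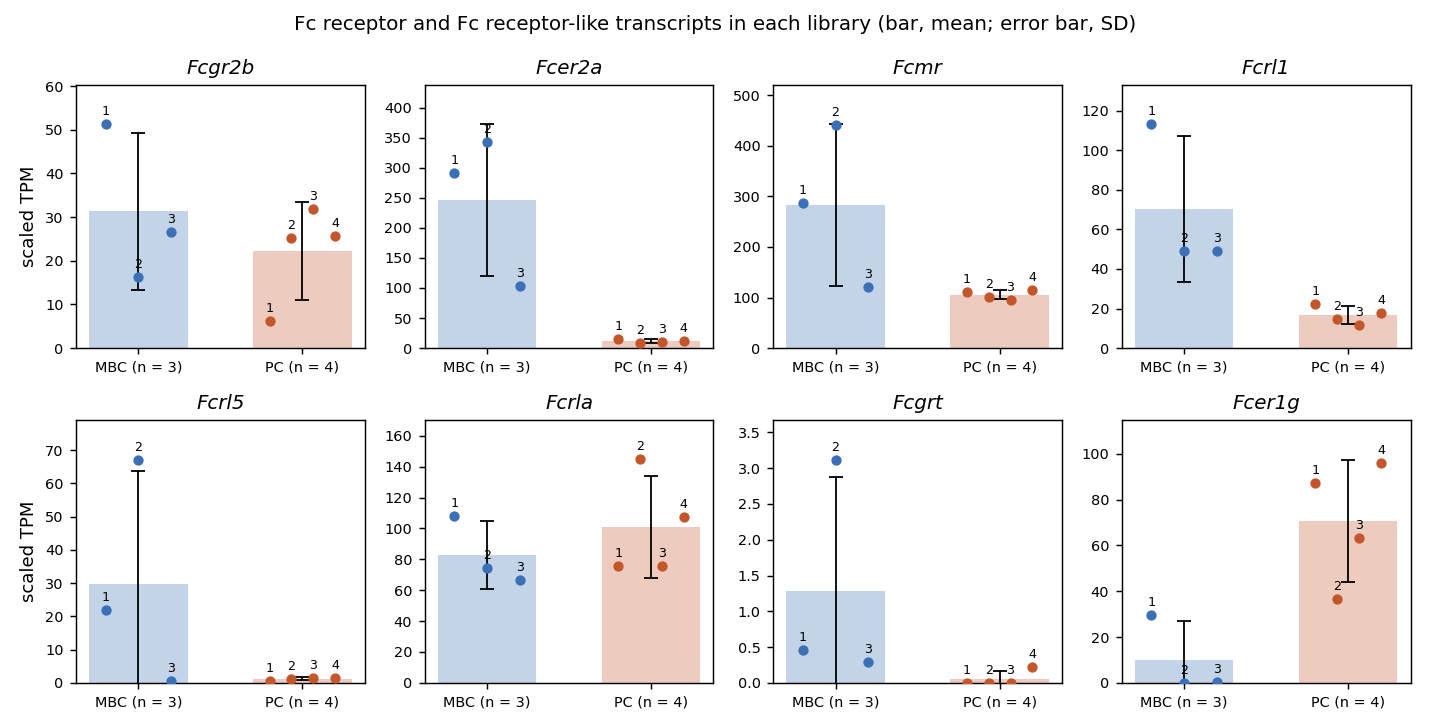
Scaled TPM of each of the 8 genes in every library (points, numbered by replicate), with the group mean (bar) and SD (line; where the SD exceeds the mean it is drawn from 0). Fcer2a fell from 104 to 343 in MBCs to 7.95 to 15.7 in PCs, Fcer1g was at 36.6 to 95.8 in PCs against at most 29.5 in MBCs, and Fcgr2b and Fcrla overlapped between the groups.

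The 250 bases before the RefSeq transcription start (build GRCm38.p6) of the 3 called genes are shown because these are the genes that passed the test between the populations. All 8 genes had a promoter entry in RefSeq. Fcer2a had 3 entries, of which only the entry nearest the annotated gene start is shown and was searched. The windows are written 5′ to 3′ on the strand of the gene, and capitals mark each match on either strand to GAGGAA, the core of PU.1-type ETS sites, to GAAAGT, a core of Blimp-1 sites, or to CAGGTG, an E box bound by E2A. The letters of these 3 motifs were chosen after the expression values had been seen. The windows lie at chr8:3694175-3694424 (minus strand, Fcer2a), chr3:87376137-87376386 (plus strand, Fcrl1) and chr1:171234350-171234599 (minus strand, Fcer1g).
Fcer2a: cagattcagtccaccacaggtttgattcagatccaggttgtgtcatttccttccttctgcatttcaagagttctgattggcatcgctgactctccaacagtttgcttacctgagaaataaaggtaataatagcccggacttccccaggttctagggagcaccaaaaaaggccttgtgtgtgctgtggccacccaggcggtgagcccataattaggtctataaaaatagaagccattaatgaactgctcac
Fcrl1: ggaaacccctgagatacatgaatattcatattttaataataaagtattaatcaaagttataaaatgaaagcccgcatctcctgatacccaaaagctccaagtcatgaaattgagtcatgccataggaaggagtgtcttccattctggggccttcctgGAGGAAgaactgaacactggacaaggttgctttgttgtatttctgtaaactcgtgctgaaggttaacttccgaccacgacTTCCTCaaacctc
Fcer1g: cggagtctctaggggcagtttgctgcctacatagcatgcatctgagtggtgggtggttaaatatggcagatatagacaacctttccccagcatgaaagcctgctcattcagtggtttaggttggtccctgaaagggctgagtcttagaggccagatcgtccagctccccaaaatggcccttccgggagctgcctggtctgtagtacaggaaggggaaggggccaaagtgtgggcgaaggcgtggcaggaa
The window of Fcrl1 held GAGGAA at 2 places, with first bases 93 bases before the start on the strand of the gene and 13 bases before it on the opposite strand. None of the 3 motifs was found in the windows of Fcer2a and Fcer1g. Among the other members, GAGGAA was found once each before Fcmr and Fcrla, GAAAGT once before Fcrl5 and CAGGTG once before Fcrla. Of 32851 promoter windows of the same length, 23.3% held GAGGAA, 12.3% GAAAGT and 17.2% CAGGTG on either strand. These counts describe letters in a window and say nothing about binding.

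Fcer2a encodes CD23, the low-affinity IgE receptor, a C-type lectin. The gene lies on chromosome 8 from 3681737 to 3694175 (GRCm38, minus strand). The 3 MBC libraries, in replicate order, held it at 292, 343 and 104 scaled TPM, and the 4 PC libraries at 15.7, 7.95, 10.8 and 11.4. The lowest MBC library thus lay above the highest PC library. Mean levels of 246 ± 126 (SD, n = 3) for MBCs and 11.4 ± 3.20 (SD, n = 4) for PCs corresponded to a log2 fold change of -4.17 with an SE of 0.47 (limma adjusted p = 0.000481), or 18.1-fold on the scale of scaled TPM + 1. The call held in all 18 alternative fits, with log2 fold changes from -5.45 to -3.87, and without MBC replicate 3 it was -4.70. Of the 3 calls among these genes, it was the one that no alternative ended.

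Fcmr encodes the Fc receptor for IgM, also known as Toso or Faim3, and lies on chromosome 1 from 130865669 to 130880791 (plus strand). It was at 287, 440.2 and 121 scaled TPM in the MBC libraries and at 110.5, 101, 95.1 and 116 in the PC libraries. The groups did not overlap, but MBC replicate 3 was just above the highest PC library. With means of 283 ± 159.9 (SD, n = 3) and 106 ± 9.30 (SD, n = 4), the log2 fold change was -1.23 (SE 0.43, 95% interval -2.19 to -0.27), which missed the threshold (limma adjusted p = 0.116). Without MBC replicate 3 it was -1.75 and was called (limma adjusted p = 0.00574). It was also called in the 3 other scalings, at -2.54 with TPM as deposited (limma adjusted p = 0.00214), -2.03 after quantile normalization (0.0171) and -1.52 with immunoglobulin genes removed (0.032). Fcmr nonetheless had the highest mean level of the 8 genes in both populations.

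Fcrl1 and Fcrl5 encode Fc receptor-like proteins of the B cell surface. Fcrl1 (chromosome 3, 87376387 to 87402934, plus strand) carries activating-type motifs and acts as a coreceptor of the antigen receptor, and Fcrl5 (chromosome 3, 87435773 to 87500678, plus strand) carries both inhibitory and activating-type motifs and is known from marginal zone and B-1 B cells. The level of Fcrl1 was 113, 48.9 and 48.9 scaled TPM in MBCs and 22.2, 14.8, 11.5 and 17.7 in PCs. All 3 MBC libraries exceeded all 4 PC libraries. Its log2 fold change was -1.94 (SE 0.43, limma adjusted p = 0.0212), 3.84-fold on the scale of scaled TPM + 1, from 70.3 ± 37.1 (SD, n = 3) to 16.5 ± 4.53 (SD, n = 4). This call was close to the threshold and was lost in 7 of the 18 alternatives. It was lost with no filter (limma adjusted p = 0.05) and when MBC replicate 1 (limma adjusted p = 0.0536), PC replicate 2 (0.0726), PC replicate 3 (0.0686) or PC replicate 4 (0.058) was left out, the other 2 being blocked fits, and the direction was the same in all 18 alternatives. Without MBC replicate 3 the log2 fold change was -2.14 and the call held (limma adjusted p = 0.0137).

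Fcrl5 reached 21.9 scaled TPM in MBC replicate 1 and 67.2 in MBC replicate 2 but 0.507 in MBC replicate 3, against 0.645, 1.26, 1.46 and 1.58 in PCs. MBC replicate 3 was thus below every PC library, and the other 2 MBC libraries were far above them. The log2 fold change over all libraries was -2.59 (SE 1.09, 95% interval -5.05 to -0.14) and was not called (limma adjusted p = 0.184). Without MBC replicate 3 it was -4.10 and was called (limma adjusted p = 0.00297). Over all libraries it was also called with TPM as deposited, at -3.44 (limma adjusted p = 0.0496). The call thus depended on 1 library and on the scaling. The 5 marginal zone B cell markers summed to 149 scaled TPM in MBC replicate 1, 297 in MBC replicate 2, 88.8 in MBC replicate 3 and 21.4 to 36.6 in PCs. MBC replicate 3 was thus above the PCs by this sum and below them in Fcrl5, but the single markers differed. In that library Cr2 (63.8) and Dtx1 (19.3) were above the PC range. Notch2 was at 4.03 there, within the PC range (2.15 to 4.10), against 44.5 and 44.4 in MBC replicates 1 and 2. Cd1d1 (0.107) and Cd9 (1.61) were below the PC range (0.173 to 4.74 and 8.80 to 14.2). Of the 5 markers, 1 was lower in PCs (Cr2), 1 was higher (Cd9, log2 fold change 3.04, limma adjusted p = 0.00685) and 3 were not called, and their part in the result was not tested. The ratio of Fcrl1 to Fcrl5 within a library overlapped between the populations. As log2 of (scaled TPM + 1) it was 2.32, -0.45 and 5.05 in MBCs and 3.82, 2.81, 2.34 and 2.86 in PCs, a mean difference of 0.65 (exact two-sided permutation test over 35 assignments, p = 0.629). Without MBC replicate 3 the ratio was lower in both MBC libraries than in any PC library, with a mean difference of 2.02 and an exact permutation p of 0.0667, the smallest that design allows.

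Fcgr2b encodes FcgammaRIIB, the inhibitory IgG receptor of B cells, and lies on chromosome 1 from 170958617 to 170976547 (minus strand). It was at 51.2, 16.2 and 26.6 scaled TPM in MBCs and at 6.18, 25.3, 31.9 and 25.8 in PCs. The groups overlapped, with the lowest and the highest values in PC replicate 1 and MBC replicate 1. Means of 31.4 ± 18.0 (SD, n = 3) for MBCs and 22.3 ± 11.2 (SD, n = 4) for PCs gave a log2 fold change, -0.53, that was smaller than its SE of 0.61 (limma adjusted p = 0.644). The 95% interval ran from -1.90 to 0.84 and so held both 0 and the change seen for Fcmr. No alternative called it. Of the 50-base stretches of its transcripts, 6.95% also occur in another gene, most often Fcgr3, and a gene model on the opposite strand overlaps it, so a small part of its reads is uncertain. Fcgr3 itself was at no more than 0.488 scaled TPM in any library.

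Fcrla encodes an Fc receptor-like protein that stays inside the cell, in the endoplasmic reticulum, and lies on chromosome 1 from 170917576 to 170927583 (minus strand). Its level was 108, 74.2 and 66.3 scaled TPM in MBCs and 75.7, 145, 75.5 and 107 in PCs. The ranges overlapped, with PC replicate 2 above every MBC library. From 82.8 ± 22.1 (SD, n = 3) to 101 ± 33.0 (SD, n = 4), the log2 fold change was 0.26 (SE 0.36, 95% interval -0.54 to 1.06, limma adjusted p = 0.705). Its sign depended on the scaling, being -1.05 with TPM as deposited, -0.027 with immunoglobulin genes removed and -0.035 after quantile normalization. A gene model on the same strand overlaps it, so its reads may be shared. Within all 4 PC libraries, Fcrla and Fcmr were the most abundant of the 8 genes apart from Fcer1g in PC replicate 1.

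Fcer1g encodes the FcR gamma chain, the activating adaptor of several IgG and IgE receptors of myeloid cells, and lies on chromosome 1 from 171229572 to 171234365 (minus strand). The MBC libraries, in replicate order, held it at 29.5, 0 and 0.37 scaled TPM, and the PC libraries at 87.4, 36.6, 63.2 and 95.8. Every PC library was above every MBC library, although MBC replicate 1 came close to the lowest of them. The mean was 9.96 ± 16.9 (SD, n = 3) for MBCs and 70.7 ± 26.6 (SD, n = 4) for PCs. Its log2 fold change, 4.28 (SE 1.05, 95% interval 1.94 to 6.62, limma adjusted p = 0.0341), amounts to 19.4-fold on the scale of scaled TPM + 1. The call was lost in 11 of the 18 alternatives. It was lost when any library other than MBC replicate 1 was left out, with limma adjusted p-values of 0.059 without MBC replicate 3, 0.113 without MBC replicate 2 and 0.0601 to 0.0955 without 1 of the PC libraries, and with TPM as deposited (0.0592), with immunoglobulin genes removed (0.0512) and with a pseudocount of 0.1 (0.0658). Without MBC replicate 1 the log2 fold change was 5.74 and the limma adjusted p was 0.000417. In every alternative it was positive, from 3.33 to 5.89.

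Cells other than B cells use Fcer1g, and their markers were read in the same libraries. The 4 mast cell or basophil markers summed to at most 0.0418 scaled TPM in any library, and of the 5 neutrophil markers 4 were at 0 in all libraries, with a highest sum of 0.357. The 8 macrophage or monocyte markers summed to 36.2, 40.3 and 5.73 scaled TPM in MBCs and to 23.4 to 33.8 in PCs. They were thus not higher as a sum in the PC libraries than in MBC replicates 1 and 2, although Cd68, a lysosomal protein gene, was at 17.0 to 25.2 there against 3.41 to 12.3 (limma adjusted p = 0.131, not called). The 4 NK cell markers summed to 0, 0 and 0.0828 in MBCs and to 1.68, 9.02, 17.7 and 3.37 in PCs, and the 5 T cell markers to 0, 0 and 0.848 in MBCs and to 12.1 to 19.9 in PCs. Both sums thus moved in the same direction as Fcer1g, but single genes made up much of them in some libraries. In PC replicate 1 Cd3e was at 11.8, with Cd3d, Cd3g and Cd8a at 0, and in PC replicate 3 Nkg7 was at 17.5. Cd3e, the only T cell marker tested, was called higher in PCs (log2 fold change 3.17, limma adjusted p = 0.00807), and no NK cell marker was tested. The part of these cells in the result was not tested. Within MBCs, MBC replicate 1 alone held Fcer1g above 1, whereas MBC replicate 2, with Fcer1g at 0, had the higher macrophage or monocyte sum. The markers in that sum differed in direction between MBC replicates 1 and 2. Lyz2 (0.0823 and 21.0), Itgam (2.11 and 3.45) and Adgre1 (0 and 0.573) were higher in MBC replicate 2. C1qb (15.0 and 0.108), Csf1r (5.48 and 3.97), Cd68 (12.3 and 11.2) and Cd14 (1.16 and 0) were higher in MBC replicate 1. The part of such cells in the level of Fcer1g was not tested.

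The FcR gamma chain was also set against the inhibitory receptor within each library. The log2 ratio of Fcer1g to Fcgr2b within a library was -0.78, -4.10 and -4.33 in MBCs and 3.62, 0.52, 0.96 and 1.86 in PCs. It was below 0 in 3 of 3 MBC libraries and above 0 in 4 of 4 PC libraries, a mean difference of 4.81 (p = 0.0286 by an exact two-sided permutation test, which with 35 assignments cannot give less, and 0.0429 after adjustment over the 3 ratios tested). Since Fcer1g was at or near 0 in MBC replicates 2 and 3, the ratio there was set by Fcgr2b and the pseudocount of 1, and since Fcgr2b was not called, the ratio is no separate evidence beside the change of Fcer1g. Among the PC libraries, PC replicate 1 had both the lowest Fcgr2b and the highest ratio.

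Fcgrt encodes the heavy chain of the neonatal Fc receptor, which pairs with beta-2 microglobulin and rescues IgG from breakdown, and lies on chromosome 7 from 45092990 to 45103851 (minus strand). It was close to 0 in these cells, at 0.455, 3.11 and 0.292 scaled TPM in MBCs and at 0, 0, 0 and 0.223 in PCs. The groups did not overlap, but only MBC replicate 2 exceeded 1. B2m, the gene of its partner chain, was at 1743, 2197 and 724 scaled TPM in MBCs and at 6616, 8188, 5589 and 7312 in PCs. The log2 ratio of Fcgrt to B2m was lower in PCs by 3.20 (exact two-sided permutation test, p = 0.0286, adjusted 0.0429). Since Fcgrt was near 0 in PCs and low in MBCs, the ratio was set largely by B2m and the pseudocount of 1. B2m alone separated the populations, so this p is no separate evidence on Fcgrt.

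**Figure D2:**
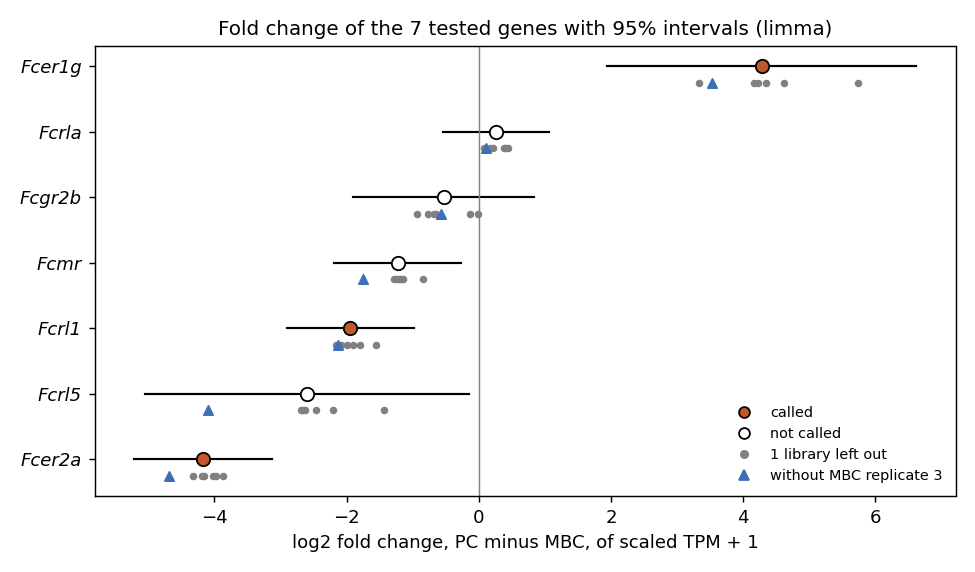
Log2 fold change (PC minus MBC, of scaled TPM + 1) of the 7 tested genes, with 95% intervals; filled circles are called by limma, grey points leave out 1 library, and the triangle leaves out MBC replicate 3. Fcer2a lay between -4.70 and -3.87 whichever library was left out, whereas Fcrl5 moved from -2.59 to -4.10 without MBC replicate 3.

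As a repertoire, the 8 genes summed to 903, 993 and 367 scaled TPM in MBCs and to 318, 332, 289 and 376 in PCs. MBC replicate 3 was thus within the PC range by its sum. The make-up of that sum does not depend on how libraries are scaled, and it is given here as a description. Fcmr took a like share in both, 36.3 ± 6.97% (SD, n = 3) for MBCs and 32.2 ± 1.98% (SD, n = 4) for PCs. Fcer2a took 28.2 to 34.6% in MBCs and 2.40 to 4.93% in PCs. Fcrla took 7.48 to 18.1% in MBCs and 23.8 to 43.7% in PCs, and Fcer1g took 3.27, 0 and 0.101% in MBCs and 27.5, 11, 21.8 and 25.5% in PCs. MBC replicate 3, which departed from the other MBC libraries in level, had shares of Fcer2a (28.2%), Fcrla (18.1%), Fcer1g (0.101%) and Fcrl1 (13.3%) outside the PC range and shares of Fcmr (32.8%) and Fcgr2b (7.25%) inside it, and its share of Fcrl5 (0.138%) was below both the other MBC libraries (2.43 and 6.76%) and the PCs (0.203 to 0.506%). The shares of Fcgr2b, Fcrl1, Fcrl5 and Fcgrt overlapped between the groups.

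**Figure D3:**
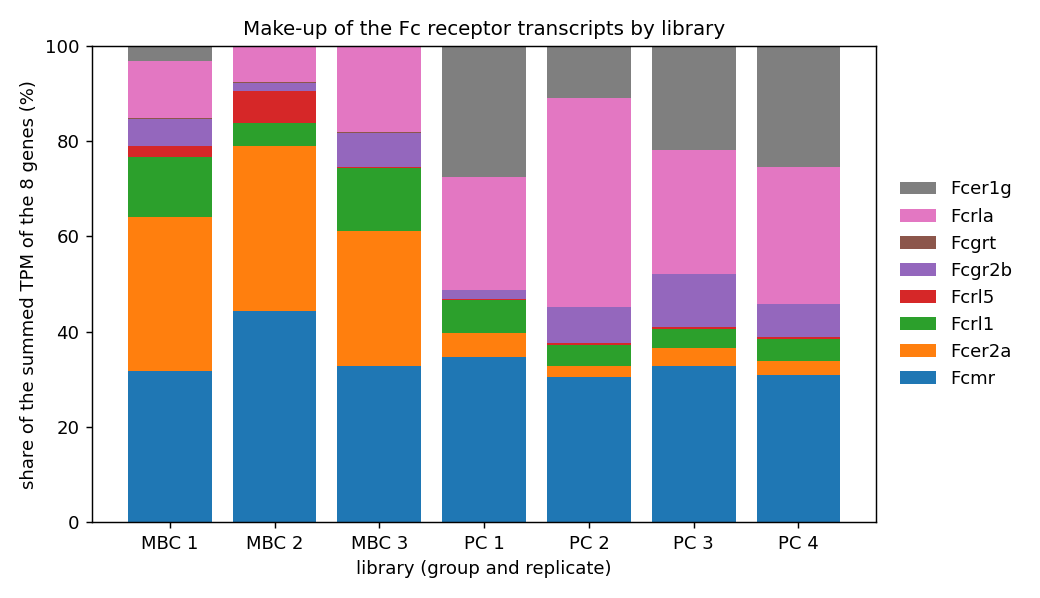
Share of each gene in the summed TPM of the 8 genes (y axis, percent) in each library (x axis). Fcer2a fills 28.2 to 34.6% of the bar in MBCs and 2.40 to 4.93% in PCs, where Fcrla and Fcer1g fill 23.8 to 43.7% and 11 to 27.5%.

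In order of mean level, MBCs ran Fcmr, Fcer2a, Fcrla, Fcrl1, Fcgr2b, Fcrl5, Fcer1g and Fcgrt, and each of the 7 neighbouring pairs overlapped in range, so the order between neighbours was not fixed by these libraries. PCs ran Fcmr, Fcrla, Fcer1g, Fcgr2b, Fcrl1, Fcer2a, Fcrl5 and Fcgrt. There 4 of the 7 neighbouring pairs overlapped, and 3 did not (Fcer1g above Fcgr2b, Fcer2a above Fcrl5, and Fcrl5 above Fcgrt).

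Of 11 other Fc receptor genes, receptor chains and antibody-binding proteins, 10 were under 1 scaled TPM in every library. Fcgr1, the high-affinity IgG receptor, Fcer1a, the alpha chain of the high-affinity IgE receptor, and Fcrl6 were listed at 0 in all 7 libraries, and Fcgr4 was at most 0.237. The transcripts of the ligand-binding chains that need the FcR gamma chain were thus near or at 0 in the PC libraries in which Fcer1g was high. Of the 11 genes, 2 were tested and neither was called by limma, 1 of them having an unadjusted p under 0.05. Trim21, a cytosolic antibody receptor that directs bound material to degradation, was at 13.3, 74.5 and 7.44 scaled TPM in MBCs and at 4.4, 4.77, 3.41 and 3.18 in PCs (log2 fold change -2.09, SE 0.72, limma adjusted p = 0.111). It was called without MBC replicate 3 (-2.72, limma adjusted p = 0.0244). Fcamr, a receptor for IgA and IgM, was at no more than 0.694.

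Several members of the family sit in gene clusters with other Fc receptor genes. On chromosome 1, Fcrla, Fcgr2b, Fcgr4, Fcgr3 and Fcer1g lie within 316.79 kb that hold 12 protein-coding genes. Fcrla and Fcgr2b, at one end, overlapped between the groups, Fcgr4 and Fcgr3 were near 0, and Fcer1g, at the other end, was higher in PCs. Within the interval, the genes nearest to Fcer1g were Apoa2, with means of 0.278 and 5.05 scaled TPM for MBCs and PCs (limma adjusted p = 0.0846), and Tomm40l, at 3.23 and 4.99 (limma adjusted p = 0.508). Neither was called. Both lie on the same side of Fcer1g, and genes on its other side, outside the interval, were not examined. Sdhc, a succinate dehydrogenase subunit gene within the interval, was at 6.91 and 29.4 (limma adjusted p = 0.088) and was not called either. On chromosome 3, Fcrls, a macrophage-type member, was at 0.039 or less beside Fcrl1 and Fcrl5. On the same stretch of chromosome 1 as Fcmr, 79.89 kb in all, Fcamr and Pigr were under 1 in all libraries.

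**Figure D4:**
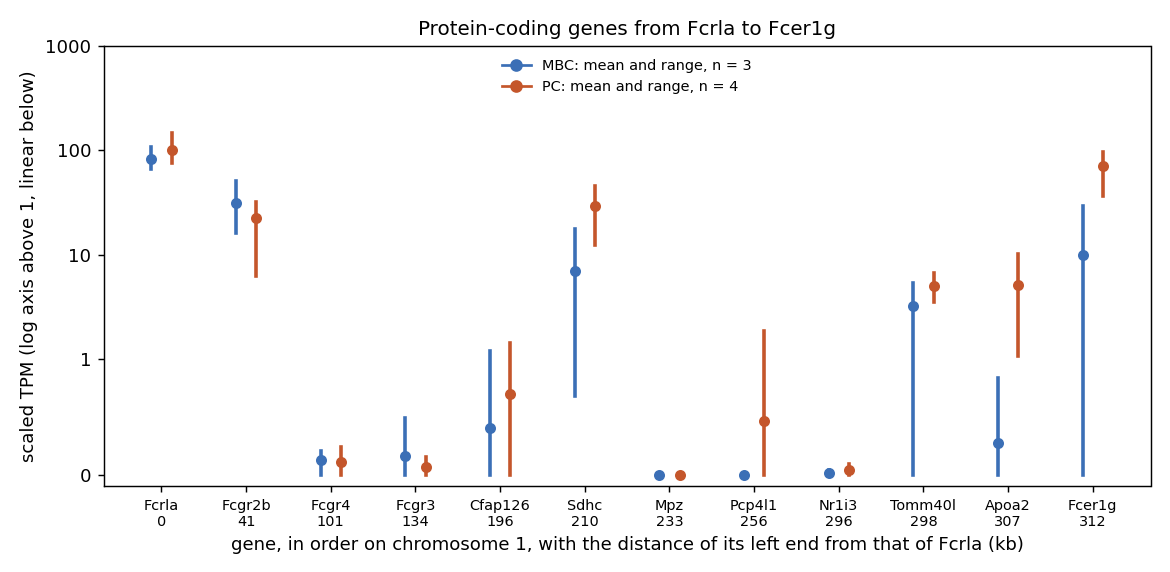
Mean (point) and range (line) of scaled TPM for the 12 protein-coding genes from Fcrla to Fcer1g, in their order on chromosome 1, with the distance from Fcrla in kb under each name; the y axis is logarithmic above 1 and linear below. Fcer1g, 312 kb from Fcrla, is the only gene of the interval called, and Fcgr4 and Fcgr3 lie under 0.5 in both groups.

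Partners and signalling genes of these receptors were read from a list of 15, all tested. Of these, 5 were lower in PCs, 1 was higher and 9 were not called, and 14 of the 15 are described or plotted. Of all genes tested, 2.14% were called lower and 6.41% higher in PCs. Cr2, which encodes the complement receptor CD21, was at 80.5, 148 and 63.8 scaled TPM in MBCs and 4.72, 3.64, 3.92 and 7.19 in PCs (log2 fold change -4.01, SE 0.44, limma adjusted p = 0.000399), beside -4.17 for Fcer2a. The call of Cr2 held in all 18 alternatives. Also lower were the kinase gene Lyn at -1.87 (limma adjusted p = 0.0306), the SHP-1 gene Ptpn6 at -1.65 (0.0237) and Inpp5d, the gene of the phosphatase SHIP-1 that FcgammaRIIB recruits, at -1.65 (0.038). These 3 calls were lost in 9, 7 and 10 of 18 alternatives, most of them the leaving out of 1 library. Inpp5d was at 94.0, 108 and 40.5 scaled TPM in MBCs and 22, 20.1, 29.9 and 21.2 in PCs, without overlap, whereas Fcgr2b overlapped. B2m rose by 2.29 on the log2 scale (SE 0.45, limma adjusted p = 0.0129), which fell to 0.16 after quantile normalization (0.862) and to 0.96 with TPM as deposited (0.101). The log2 fold changes of the phosphatase gene Ptpn11 (1.05) and of the adaptor genes Dok1 (0.51) and Dok3 (0.04) were not called, and all 3 turned negative with TPM as deposited. Of the other genes that were not called, Syk, the kinase that activating motifs recruit, had -1.03 (limma adjusted p = 0.176) and Adam10, the protease that sheds CD23, 0.66 (0.321, with the sign turned to -0.61 in TPM as deposited).

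**Figure D5:**
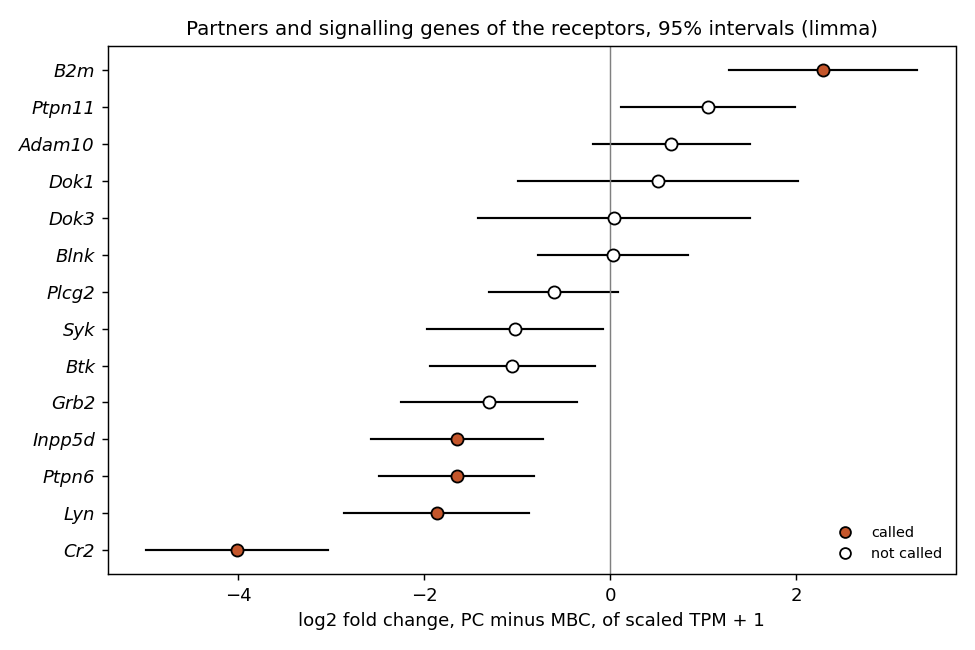
Log2 fold change (PC minus MBC, of scaled TPM + 1) of 14 partner and signalling genes with 95% intervals; filled circles are called by limma. Cr2, Lyn, Ptpn6 and Inpp5d lie at -4.01 to -1.65 and B2m at 2.29.

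The heavy chain constant genes encode the antibody parts to which the receptors bind. All 8 were tested, and 6 were higher in PCs, namely Ighm (log2 fold change 5.36), Ighg1 (4.74), Ighg2b (5.88), Ighg2c (8.11), Ighg3 (5.27) and Ighe (7.84), with limma adjusted p-values of 5.83e-05 to 0.00194. The share called higher among all genes tested was 6.41%. Igha (4.81, limma adjusted p = 0.061) and Ighd (-0.39, 0.768) were not called, and Igha was called in 6 of 17 alternatives. Ighe, whose product CD23 binds, was at 1.67, 23.4 and 3.73 scaled TPM in MBCs and at 2173, 1172, 2619 and 859 in PCs, while Fcer2a was lower in all 4 PC libraries than in all 3 MBC libraries. Ighm, whose product the receptor encoded by Fcmr binds, was at 639 to 2420.3 scaled TPM in MBCs and at 36201 to 99833 in PCs.

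Genes whose levels ran most like each member over the 7 libraries were listed by Pearson's r of log2(scaled TPM + 1), as a description, since the libraries fall into 2 groups that alone can give a high r. Fcer2a ran most like Dennd4a (r = 0.999), Sh3kbp1 (0.998) and Lnpep (0.994), and Fcrl1 most like Lyst (0.994), Anp32a (0.989) and Gm20559 (0.985). For Fcmr the genes were Zbtb11 (0.995), Ube3b (0.993) and Zfp984 (0.992), and for Fcrl5 Pcnx (0.992), Smug1 (0.992) and Tle3 (0.991). Fcer1g ran most like Hepacam2 (0.983), Arhgef12 (0.983) and Slc17a9 (0.978). Hepacam2 was at 6.95 scaled TPM in MBC replicate 1, at 0 in MBC replicates 2 and 3 and at 13.8 to 17.1 in PCs. In MBC replicates 2 and 3 Fcer1g was at 0 and 0.37. For the genes that overlapped between the groups, the nearest were Zfand3 (0.978), Snrk (0.976) and Mad1l1 (0.968) for Fcgr2b, and Zfp141 (0.970), Plgrkt (0.939) and Gm24924 (0.908) for Fcrla. Among the members themselves, Fcmr and Fcrl5 ran closest (0.972), then Fcer2a and Fcrl1 (0.926).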

How the data were processed

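RNA was purified from the sorted cells with AllPrep kits, converted with a Nugen cDNA kit, and the libraries were read on an Illumina HiSeq. The submitters' processing notes name STAR 2.5.2a, RSEM 1.3.0, DESeq2 1.18.1 and GRCm38, with no role or order; the annotation release is not given in the sources used here. The authors deposited TPM, with 2 decimals, for 48795 Ensembl genes in 7 libraries. TPM keeps no read totals, so depth, counting intervals and detection floors cannot be given. TPM also divides by the library total, so a gene can fall because immunoglobulin transcripts rise.

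Gene symbols came from GENCODE M21 (48349 genes matched) and promoters from RefSeq (GRCm38.p6). Libraries were rescaled by the median ratio to the geometric mean of 9305 genes above 0 in all 7. Genes with at least 1 TPM in at least 3 libraries (11573) were fitted in 1 model, without covariates, as log2(scaled TPM + 1) in limma 3.58.1 (R 4.3.3; lmFit, eBayes with trend, Benjamini-Hochberg), a test suited to log-scale values. The code was tried on simulated normal values with the same spread in both groups. That trial does not cover genes whose spread differs between the groups, such as Fcrl5. Fold changes of log2(scaled TPM + 1) understate changes of low genes. Groups came from the labels. Ratios were compared with exact two-sided permutation tests (Python 3.11.15). Named genes were all 8 members, the genes described from lists of other Fc receptors, partners and heavy chain genes, and for each tested member the 3 genes most correlated with it. The members and lists were chosen with earlier results of these data known. Alternatives were other scalings, pseudocounts and filters, each library left out, the title prefix, replicate blocks and no trend. A prefix in the titles, whose meaning the labels do not give, is shared by MBC replicates 1 and 2 and PC replicates 1 to 3 and differs in the other 2 libraries. A gene of the partner list enters the counts and is not reported here by name.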

Additional observations from a re-analysis of the deposited data

Results flagged for a closer look

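Single PC libraries lay far from the other 3 for 7 of 49 results examined by Dixon's test (for normally spread values about 1 in 20 passes by chance, 2.45 of 49). That rate does not hold where the other 3 libraries are at 0, since any value above 0 then passes. The 7 results can therefore not be compared with 2.45. Dok3, the gene of an adaptor that carries inhibitory signals in B cells, was at 42.9 scaled TPM in PC replicate 1 against 8.25 to 14.0 in the other 3, and that library also had the lowest Fcgr2b of all (6.18). The 6 others were levels near 0 or, for Fcgrt, such a level and also its share. Fcgrt was at 0.223 scaled TPM in PC replicate 4, or 0.0594% of the members' summed TPM, and at 0 in the other 3. Pigr was at 0.44 in PC replicate 1 against at most 0.0595. PC replicate 2 alone held Fcamr at 0.178, Fcrlb at 0.0892 and Ms4a2, the beta chain of the high-affinity IgE receptor, at 0.0446, with the other PC libraries at 0.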

How the results depend on the processing

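The member called higher (1) was lost with TPM as deposited, immunoglobulin genes removed, a pseudocount of 0.1, no filter and the more frequent title prefix only, each giving 0. Members called lower (2) became 4 with TPM as deposited and with that prefix only, and 1 with no filter, the replicate block and the title code as block. Of all tested genes, those higher (742) became 472 with TPM as deposited, 393 with immunoglobulin genes removed, 437 with no filter, 390 in the replicate block and 434 in the title code block. Those lower (248) became 3018, 431, 123, 60 and 83 in the same order, 460 after quantile normalization and 448 with the prefix only. Other Fc receptors called (0) became 1 with TPM as deposited, and partners called (6) became 10 there, 3 with no filter, in the replicate block and without the trend, and 2 in the title code block. Leaving out 1 library gave 0 to 1 members higher and 1 to 4 lower, 456 to 1624 and 93 to 881 of all genes, 0 to 1 other Fc receptors, 3 to 7 partners and 6 to 7 heavy chain genes. The ratios then ran from 4.18 to 5.96 (Fcer1g to Fcgr2b), -3.58 to -2.99 (Fcgrt to B2m) and -0.73 to 2.02 (Fcrl1 to Fcrl5, negative without MBC replicate 2); their exact permutation p cannot go below 0.0667 there. With the prefix only, where the smallest exact permutation p is 0.1, the first 2 were 4.14 and -3.07.

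Signs turned for genes that were not called. With TPM as deposited, where the median of all genes moved to -0.91, the log2 fold change was -1.05 for Fcrla, -0.61 for Adam10, -1.28 for Blnk, -0.19 for Ptpn11, -0.27 for Dok1 and -1.21 for Dok3. With immunoglobulin genes removed it was -0.027 for Fcrla, -0.26 for Blnk and -0.24 for Dok3, and after quantile normalization -0.035 for Fcrla and -0.64 for Blnk. Blnk was -0.084 with the prefix only and -0.023 with the prefix as a term. Leaving out 1 library gave -0.22 to 0.33 for Blnk, -0.18 to 0.85 for Dok1, -0.54 to 0.44 for Dok3 and -1.22 to 0.27 for Ighd. The causes of these changes were not tested, beyond what each setting leaves out or divides by.

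Whether replicate numbers or title codes pair the libraries was not settled by the values. The correlation of deviations from the group means was 0.109, -0.04 and -0.083 for libraries sharing a number, and 0.109, -0.0044 and 0.222 for those sharing a title code. For MBC and PC libraries with different title codes it ran from -0.176 to 0.152. Deviations within so small a group are tied to each other by its mean, so these correlations cannot decide on pairing. The main fit used no pairing. Fcrl1 lost its call in the replicate block (limma adjusted p = 0.086) and in the title code block (0.067), and no other member's call changed. Depth is unknown, so what low levels such as those of Fcgrt could show is unknown too.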

Other observations

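Receptors and adaptors that can pair with the FcR gamma chain or act like it were listed after the values had been seen, so the list supports nothing by itself. Of 14 genes, 11 were in the table and 3 were tested, none of them called by limma (1 had an unadjusted p under 0.05). Hcst, which encodes the adaptor DAP10, was at 0, 0 and 1.88 scaled TPM in MBCs and 2.5, 15.0, 5.68 and 16.4 in PCs (limma adjusted p = 0.051). Tyrobp, which encodes the related adaptor DAP12 of myeloid and NK cells, was at 17.1, 5.06 and 0.853 in MBCs and 0, 3.63, 3.74 and 3.08 in PCs. Cd247, the CD3 zeta chain gene, overlapped between the groups (1.08 to 7 and 1.78 to 16.0). Pira2, a paired immunoglobulin-like receptor gene, was at 8.31, 5.72 and 0.341 in MBCs and at most 0.519 in PCs. The C-type lectin genes Clec4e and Clec4d and the platelet collagen receptor gene Gp6 were listed at 0 in all 7 libraries, and Ncr1 was at 0 in all MBC libraries and at most 1.68 in PCs.

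Among other markers, the erythroid sum was 2897 scaled TPM in MBC replicate 2 against 2.60 and 15.4 in the other MBC libraries and 0.32 to 72.6 in PCs. The platelet sum was 4.58 in MBC replicate 1, all of it Gp9 with the other 3 markers at 0, and at most 1.17 elsewhere. The dendritic cell sum was 5.99 to 11.1 in MBCs and 1.23 to 4.77 in PCs, and the endothelial sum was at most 2.55.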
